A study of Mus musculus with 6 samples.

Results

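The genes described here encode 60 nucleolar factors that process ribosomal RNA (rRNA), chosen by symbol from a list of ribosome assembly proteins. All 60 had a row of their own in the authors' deposited gene table, and all were among the 14575 measurements (genes, or groups of overlapping genes measured together) that the authors tested. The RNA came from wild-type mouse embryonic fibroblasts made immortal with SV40, a virus whose large T antigen inactivates p53 and the retinoblastoma protein. Cultures were kept for 16 h at 21% oxygen (normoxia, 3 samples) or at 0.5% oxygen (hypoxia, 3 samples), and both groups carry the same genotype and the same immortalisation. Each gene has 1 FPKM per group (fragments scaled to transcript length and library size). The authors' table merges the 3 replicates into that value, so no SD can be given, and the depth behind it is unknown. A gene is said to have fallen or risen in hypoxia where the authors' deposited table gives a q-value below 0.05 in their Cuffdiff test, and folds are ratios of the 2 group values.

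Ribosomes are assembled in the nucleolus, where RNA polymerase I makes a long precursor that holds the 18S, 5.8S and 28S rRNAs. The small-subunit processome, built around the U3 small nucleolar RNA, folds and cuts the part that becomes the 40S subunit, and a separate set of factors matures the 60S subunit. Small nucleolar ribonucleoproteins (snoRNPs) guide chemical marks on the rRNA: box C/D particles methylate ribose and box H/ACA particles make pseudouridine. Making ribosomes takes a large share of a growing cell's energy, and it is known to slow when oxygen or nutrients are short.

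Transcripts of the 60 factors were mostly lower in hypoxia. The authors' deposited table calls 45 of them lower (75%) and 6 higher, with 9 not called, against 29.0% lower and 28.9% higher (57.9% called in either direction) among all tested measurements. A fall of at least 2-fold was called for 24 (40%, against 9.87% of all tested measurements). None of the 6 rises reached 2-fold, while 1316 of all 14575 tested measurements were called at least 2-fold higher. The median log2 fold change of hypoxia over normoxia was -0.81 for the 60 factors, with quartiles of -1.31 and -0.26, and -0.01 for all tested measurements. Ranked among all tested measurements by log2 fold change, 20 of the 60 lay below the 10th percentile, 35 below the 25th and 9 above the 50th, and 0 lay above the 90th. Rrp12 had the lowest log2 fold change of the 60, and 61 other measurements had a lower one.

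**Figure D1:**
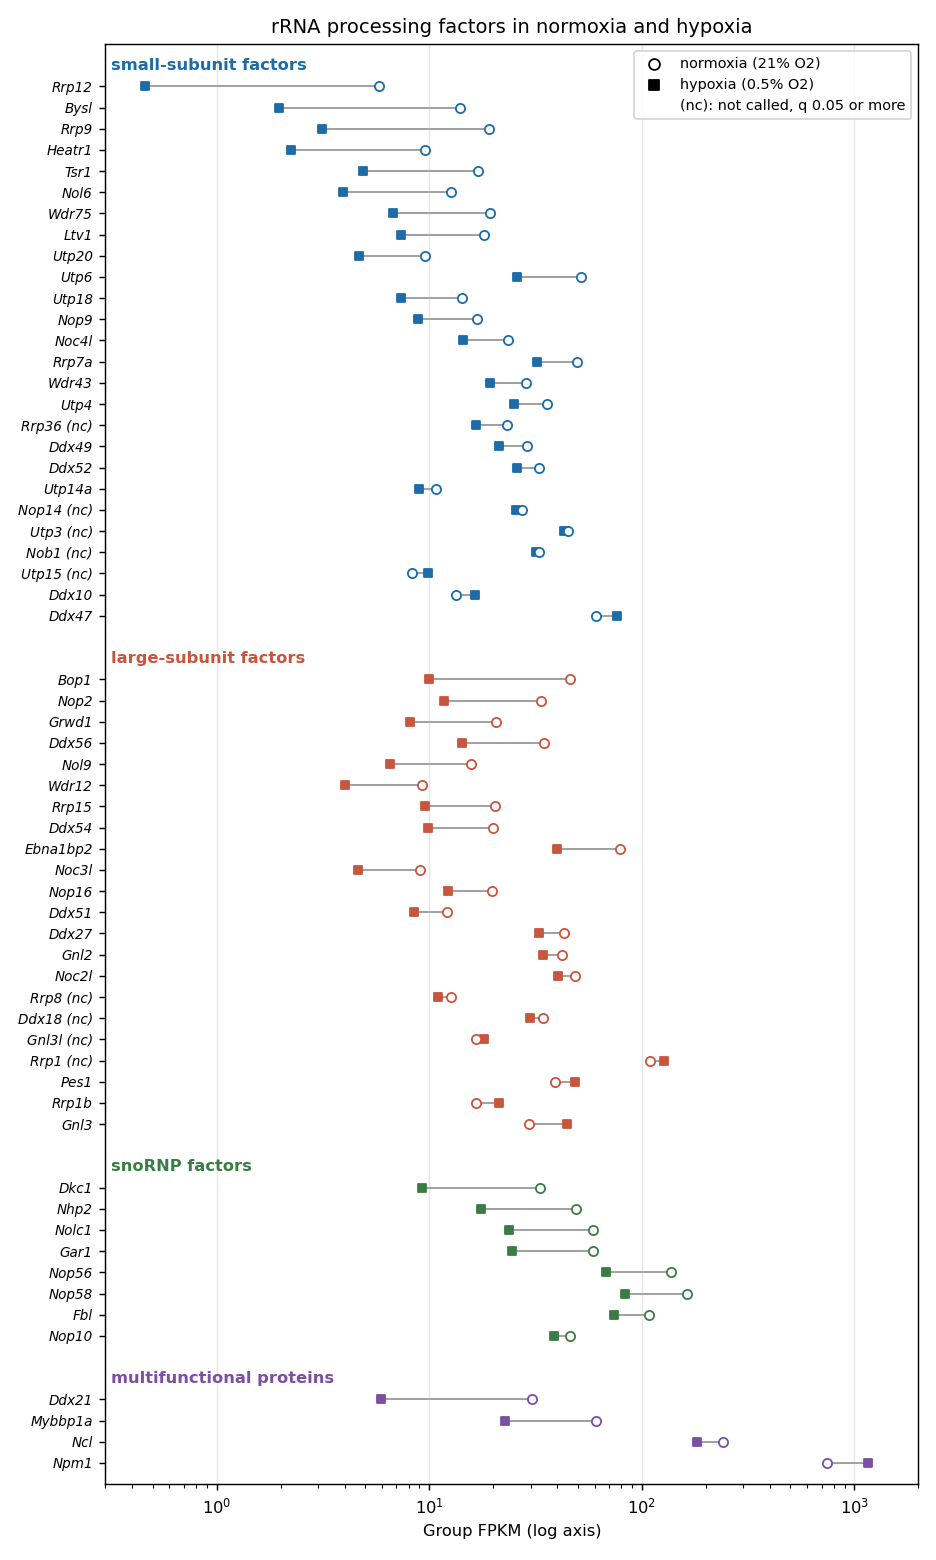
Group FPKM (log axis) of each of the 60 factors in normoxia (open circles) and hypoxia (filled squares), grouped by role and ordered by change within each role, with (nc) after genes the authors did not call. Squares lie left of circles for 51 genes, and Rrp12 spans the widest gap, from 5.78 to 0.461 FPKM.

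The factors differed widely in level before any change. In normoxia Npm1 was the most abundant at 742 FPKM, followed by Ncl at 240.1, Nop58 at 163 and Nop56 at 138 FPKM, and Rrp12 was the least abundant at 5.78 FPKM. The median over the 60 was 29.2 FPKM in normoxia and 17.0 in hypoxia. Their summed FPKM went from 3069 to 2701, of which Npm1 alone made up 24.2% in normoxia and 43.0% in hypoxia. Without Npm1 the sum went from 2327 to 1540.2 FPKM, a ratio of 0.662, while the sum over the whole table was 1.17 times as high in hypoxia. Members with high and low levels in normoxia both fell: across the 60 genes Spearman's rho between log2 normoxia FPKM and log2 fold change was 0.17, a description over genes that share the same 2 group values.

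**Figure D2:**
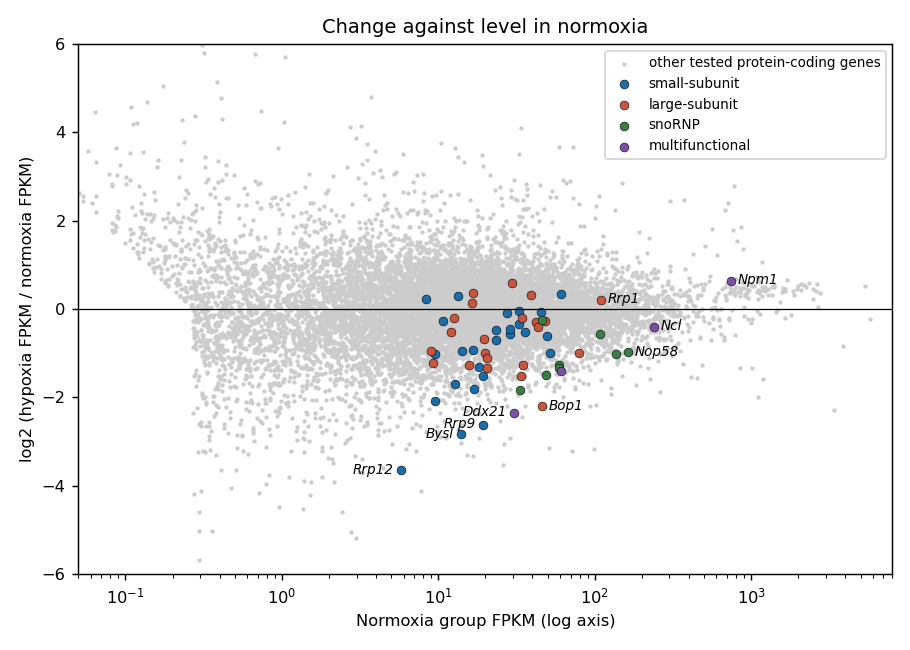
log2 ratio of hypoxia to normoxia FPKM against normoxia FPKM (log axis) for the 60 factors, coloured by role, over the other tested protein-coding genes in grey (31 genes lie outside the axes). Most coloured points lie below 0 across the range from 5.78 FPKM (Rrp12) to 240.1 FPKM (Ncl), and Npm1 lies above 0.

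By role, the falls were spread over all 4 groups. Of 26 small-subunit factors 19 fell, 2 rose and 5 were not called (median log2 fold change -0.66). Of 22 large-subunit factors 15 fell, 3 rose and 4 were not called (median -0.60). All 8 snoRNP factors fell (median -1.15), and of 4 proteins with several nucleolar roles 3 fell and 1 rose (median -0.91). Whether the roles differ from each other was not tested, since the table has 1 value per group.

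**Figure D3:**
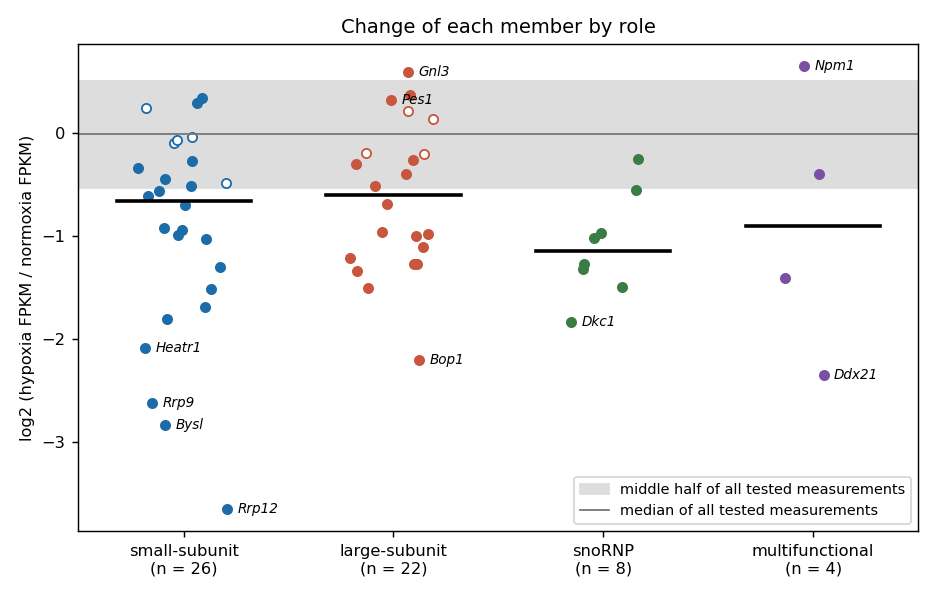
log2 ratio of hypoxia to normoxia FPKM for each factor by role (filled points called, open points not called, black bars the medians), over the range between the quartiles of all tested measurements (grey band) and their median (line). The medians of all 4 roles, from -0.60 to -1.15, lie below the grey band, and Gnl3 and Npm1 lie above it.

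The 2 largest falls of the 60, those of Rrp12 and Bysl, were in small-subunit factors that act late, while the 3 other late factors changed less than several members of other groups. Rrp12 (chromosome 19, 41862851 to 41896173, minus strand, GRCm38), a HEAT-repeat protein needed for maturation and nuclear export of pre-ribosomes, went from 5.78 FPKM in normoxia to 0.461 FPKM in hypoxia, 12.5-fold lower. Bysl (chromosome 17, 47599331 to 47611492, minus strand), which encodes bystin, a 40S maturation factor, went from 14.0 to 1.96 FPKM, 7.14-fold lower. Tsr1, a GTPase-like protein of late pre-40S particles, went from 16.9 to 4.86 FPKM, and Ltv1, another factor of pre-40S particles, from 18.1 to 7.34 FPKM. These 4 genes thus ended at 40.6% (Ltv1) or less of their normoxia level. Nob1, the endonuclease that makes the final 3′ end of 18S rRNA, had 32.8 FPKM in normoxia and 31.9 in hypoxia and missed the threshold of the authors' deposited table (q = 0.764). Within this set of 5 the highest level was 5.67 times the lowest in normoxia and 69.1 times the lowest in hypoxia.

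The 5 members of UTP-A, the subcomplex that binds the precursor first and is also needed for its transcription, changed unequally. Heatr1 (chromosome 13, 12395027 to 12440289, plus strand) fell from 9.51 to 2.24 FPKM, 4.24-fold. Wdr75 fell from 19.3 to 6.78 FPKM, Wdr43 from 28.5 to 19.3 FPKM and Utp4 from 35.6 to 24.98 FPKM. Utp15 had 8.34 FPKM in normoxia and 9.82 in hypoxia and missed the threshold of the authors' deposited table (q = 0.0851). Both members of UTP-B, the subcomplex that joins with U3, fell by close amounts, Utp6 from 51.5 to 25.9 FPKM and Utp18 from 14.2 to 7.40 FPKM. Of the UTP-C members, Nol6 fell 3.23-fold to 3.93 FPKM and Rrp7a fell 1.53-fold to 32.2 FPKM.

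Rrp9 (chromosome 9, 106475963 to 106485424, plus strand), the protein specific to the U3 snoRNP, fell from 19.2 to 3.13 FPKM, 6.14-fold. Nop14 and Noc4l encode partners in 1 module of the processome. Noc4l fell from 23.4 to 14.4 FPKM, whereas Nop14, at 27.3 and 25.5 FPKM, missed the threshold of the authors' deposited table (q = 0.446). Utp20, a very large scaffold protein, fell 2.04-fold, Nop9, an RNA-binding factor of 18S processing, 1.89-fold and Utp14a, a helicase cofactor, 1.21-fold. Utp3 had 45.2 and 43.1 FPKM and was not called (q = 0.556 in the authors' deposited table). Rrp36 had 23.3 and 16.6 FPKM, a larger ratio than those of several members that were called lower, but its q in the authors' deposited table was 0.684.

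The RNA helicases of the small subunit were the group of small-subunit factors that held rises. Ddx10 went from 13.4 to 16.4 FPKM (1.22-fold higher) and Ddx47 from 60.9 to 76.7 FPKM (1.26-fold higher). Ddx49 fell from 28.9 to 21.2 FPKM and Ddx52 from 32.9 to 25.9 FPKM. All 4 changes were smaller than 1.5-fold, and the direction did not follow the level, since Ddx47 was the highest and Ddx10 the lowest of the 4 in normoxia.

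Among large-subunit factors the PeBoW complex, whose 3 proteins act together in making 5.8S and 28S rRNA, changed in both directions. Bop1 (chromosome 15, 76452989 to 76477277, minus strand) fell from 45.9 to 9.96 FPKM, 4.61-fold. Wdr12 fell from 9.29 to 4.01 FPKM, 2.32-fold. Pes1 (chromosome 11, 3963975 to 3980004, plus strand) rose from 38.9 to 48.6 FPKM, 1.25-fold. The ratio of Pes1 to Bop1 FPKM was 0.848 in normoxia and 4.88 in hypoxia.

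**Figure D4:**
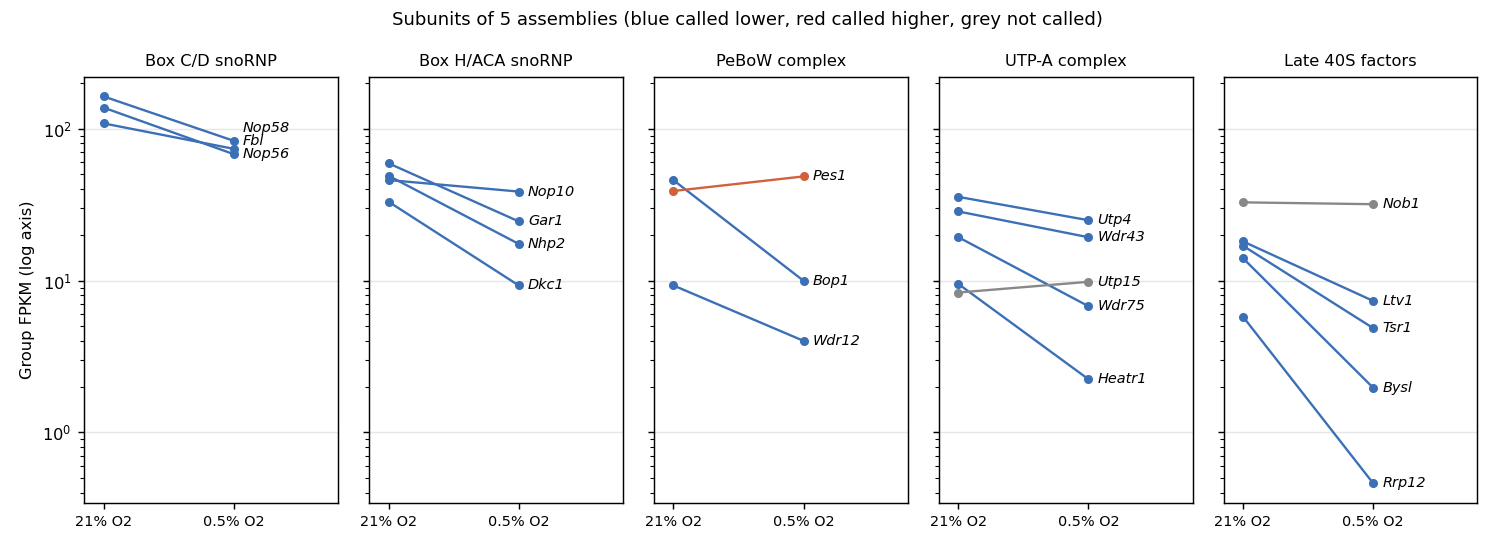
Group FPKM (log axis) at 21% and 0.5% oxygen for the subunits of 5 assemblies, with blue lines for genes called lower, red for higher and grey for not called. The 3 box C/D proteins shown (Snu13 is not drawn) lie closer together in hypoxia, and Pes1 and Bop1 move apart. Among the late 40S factors Nob1 lies at 32.8 and 31.9 FPKM while Rrp12 falls to 0.461 FPKM.

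Of the enzymes that act on the 28S region, Nop2, an RNA cytosine methyltransferase, fell from 33.6 to 11.8 FPKM (2.84-fold). Rrp8, an adenine methyltransferase, had 12.6 and 10.9 FPKM and missed the threshold of the authors' deposited table (q = 0.591). Nol9, a polynucleotide kinase that prepares cut rRNA ends, fell 2.41-fold to 6.53 FPKM. Of the 5 large-subunit DEAD-box helicases Ddx56 fell from 34.7 to 14.3 FPKM, Ddx54 from 19.9 to 9.91 FPKM, Ddx51 from 12.1 to 8.44 FPKM and Ddx27 from 43.2 to 32.8 FPKM. Ddx18 had 34.2 and 29.8 FPKM and missed the threshold of the authors' deposited table (q = 0.144). Over all 10 DEAD-box genes among the 60, 7 fell, 2 rose and 1 was not called.

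Further 60S assembly factors fell without a rise among them. Grwd1, a WD-repeat chaperone, fell 2.53-fold to 8.09 FPKM, Rrp15 2.15-fold to 9.53 FPKM, Ebna1bp2 1.98-fold to 40.04 FPKM and Nop16 1.61-fold to 12.2 FPKM. Noc3l fell 1.95-fold, from 9.03 to 4.64 FPKM, and its partner Noc2l fell 1.20-fold, from 48.4 to 40.4 FPKM.

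The other rises in the large-subunit group were those of Gnl3 and Rrp1b, which each have a paralogue among the 60. Gnl3, which encodes nucleostemin, a GTPase abundant in dividing and stem cells, rose from 29.5 to 44.5 FPKM (1.51-fold, q = 0.0254 in the authors' deposited table). Its paralogue Gnl3l had 16.5 FPKM in normoxia and 18.2 in hypoxia and missed the threshold of the authors' deposited table (q = 0.227). Gnl2, the other GTPase of the family, fell from 42.2 to 34.3 FPKM. Rrp1b rose from 16.6 to 21.3 FPKM, with a q of 0.0446 in the authors' deposited table that lies close to the threshold. Rrp1, at 109.8 and 127 FPKM, lay on the other side of it (q = 0.0724 in the authors' deposited table). The ratio of Rrp1 to Rrp1b was 6.63 in normoxia and 5.97 in hypoxia. Values of Gnl3l and Rrp1, which were not called, turn lower in hypoxia when both groups are scaled to the same FPKM sum.

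The 3 core proteins specific to box C/D snoRNPs fell, and the levels of these 3 lay closer together in hypoxia. Fbl, the ribose methyltransferase fibrillarin, fell from 108.5 to 73.7 FPKM (1.47-fold). Its scaffold proteins Nop56 and Nop58, which are paralogues, fell from 138 to 68.0 FPKM (2.03-fold) and from 163 to 83.2 FPKM (1.96-fold). The highest of the 3 was 1.50 times the lowest in normoxia and 1.22 times in hypoxia, and the ratio of Nop56 to Nop58 was 0.844 in normoxia and 0.817 in hypoxia.

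The 4 core proteins of box H/ACA snoRNPs also fell, but to unequal levels. Dkc1 (chromosome X, 75095854 to 75109777, plus strand), the pseudouridine synthase dyskerin, fell from 33.1 to 9.29 FPKM (3.56-fold). Nhp2 fell from 49.0 to 17.4 FPKM and Gar1 from 59.2 to 24.5 FPKM. Nop10, the smallest subunit, fell 1.19-fold, from 46.0 to 38.6 FPKM. The highest of these 4 levels was 1.79 times the lowest in normoxia and 4.16 times in hypoxia. Nolc1, a chaperone that shuttles snoRNPs between the nucleolus and Cajal bodies, fell from 59.2 to 23.6 FPKM (2.50-fold).

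Of the 4 proteins with several roles 3 fell and Npm1 rose. Ddx21 (chromosome 10, 62580251 to 62602281, minus strand), a helicase that links rRNA transcription with snoRNA action, fell from 30.3 to 5.96 FPKM (5.08-fold). Mybbp1a, a nucleolar protein that binds transcription factors, fell from 60.6 to 22.8 FPKM, and Ncl, which encodes nucleolin, from 240.1 to 181.5 FPKM (1.32-fold). Npm1 (chromosome 11, 33152287 to 33163206, minus strand), which encodes nucleophosmin, the histone chaperone of the outer nucleolus, rose from 742 to 1160.4 FPKM (1.56-fold). The ratio of Npm1 to Ncl went from 3.09 to 6.39.

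Close copies make the Npm1 level uncertain. Of 4 processed pseudogenes that share at least 300 aligned bases at 95% identity or more with its mRNA, Gm14681 had 249.9 FPKM in normoxia and 400.1 in hypoxia and Gm9118 at 57.3 and 88.4 FPKM. Npm1 and its copies summed to 1060.2 FPKM in normoxia and 1667 FPKM in hypoxia, 1.57-fold higher, against 1.56-fold for Npm1 alone. Besides Npm1, same-strand copies at 1 FPKM or more were found for Nop56, Fbl and Ddx18, none above 6.89 FPKM. Fbl also shares 690 aligned bases at 99.6% identity with Tulp4 in the opposite orientation. Tulp4 had 29.1 FPKM in normoxia and 36.1 in hypoxia.

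Overlap with neighbouring genes is a further limit on single values. Exons of 24 of the 60 members overlap those of a gene on the opposite strand. The libraries keep strand, per the labels' protocols, but the sources used here do not say whether the authors' counting used it. Bysl overlaps Ccnd3, which went from 75.5 to 141 FPKM. Without the 28 members that have an overlap or a copy at 1 FPKM or more, 24 of the remaining 32 fell (75%) and 2 rose, Ddx10 and Ddx47. The rises of Pes1, Gnl3 and Rrp1b, which have an overlap, and of Npm1, which has copies, were among those left out.

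Other genes of the pathway, taken from 5 lists that leave out the 60 members, also fell more often than they rose. The lists were drawn up with earlier results of these data known, so they are no independent support. Of 34 tested further small-subunit factors 24 fell, 4 rose and 6 were not called (median log2 fold change -0.63). Wdr46 fell from 26.8 to 6.54 FPKM, Nol10 3.91-fold and Pno1, a partner protein of Nob1, from 25.3 to 8.23 FPKM. The rises in this list were those of Abt1, Utp11, Imp3 and Tsr3, of which Tsr3 was largest at 1.42-fold (29.4 to 41.8 FPKM). The UTP-B proteins outside the 60, Tbl3, Wdr3, Pwp2 and Wdr36, fell 2.74-fold, 1.98-fold, 1.61-fold and 1.23-fold, and Nol11, a further UTP-A protein, fell from 21.2 to 7.89 FPKM.

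Of 38 further large-subunit factors 27 fell, 3 rose and 8 were not called (median log2 fold change -0.64). Mdn1, the giant ATPase that remodels pre-60S particles, fell from 4.27 to 0.713 FPKM (5.99-fold), Ftsj3, a methyltransferase, from 27.6 to 5.99 FPKM and Urb1 from 4.10 to 0.984 FPKM. The rises were those of Tex10 (1.52-fold), Nop53 (1.50-fold, from 102 to 153.5 FPKM) and Nsa2 (1.26-fold).

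The 3 remaining lists held smaller shares of falls. Of 12 snoRNP assembly and other snoRNP factors 6 fell, 3 rose and 3 were not called. Snu13, the fourth core protein of box C/D particles, fell from 142 to 96.3 FPKM, and Znhit6, an assembly factor, fell 2.88-fold. Nufip1, the ATPase gene Ruvbl2 and Naf1 rose 1.86-fold, 1.67-fold and 1.38-fold, whereas Ruvbl1, whose protein forms rings with RUVBL2, fell from 55.9 to 32.6 FPKM. Of 13 genes of the RNA exosome, the nuclease complex that trims rRNA precursors, and its cofactors 5 fell and 2 rose, with Exosc1 lower by 3.69-fold and Mphosph6 and Exosc8 higher by 1.82-fold and 1.68-fold. Of 11 protein genes of RNase MRP and RNase P 6 fell and 1 rose. Pop1, the largest subunit, fell from 19.0 to 6.80 FPKM, and the rise was that of Rpp21 (1.38-fold). Over the 5 lists together 68 of 108 fell (63.0%) and 13 rose, against 29.0% and 28.9% of all tested measurements. Whether these lists differ from the 60 members was not tested.

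**Figure D5:**
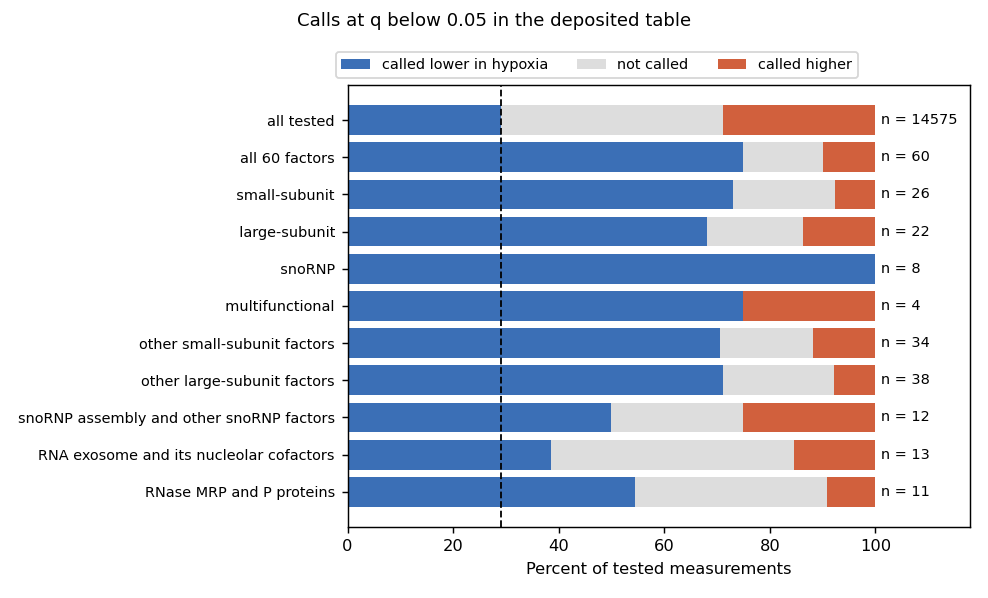
Percent of tested measurements called lower (blue), not called (grey) and called higher (red) in the authors' deposited table, for all tested measurements, the 60 factors, their 4 roles and 5 lists of other ribosome assembly genes, with the number tested at the right. The dashed line marks the 29.0% lower among all tested measurements, and every set lies to the right of it.

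Promoter sequences of the members were searched for CACGTG, the E-box bound by MYC and related factors, because MYC is known as an activator of ribosome assembly genes. RefSeq windows of GRCm38.p6 that run from 250 bases before the start to 50 bases after it were given for 52 of the 60 members (60 windows, with overlapping ones for some genes). CACGTG occurred in 11 of these windows (18.3%), against 7.15% of all 32851 windows and 9.76% of the 11718 windows of tested protein-coding genes. Of the 39 members called lower that have a window 10 held it, and of the other 13 members 1 did, Pes1. Among the 2926 tested protein-coding genes called lower with a window, 12.4% held it. In 8 of the 11 member windows (72.7%) the motif lay in the 50 bases after the start. Of the 2349 windows of all genes that hold it, 356 (15.2%) had it there. The shorter ACGTG, the core of the element bound by hypoxia-inducible factors, was counted on both strands and outside CACGTG, which contains it. It occurred in 15 member windows (25%), against 13.6% of all windows and 17.4% of those of tested protein-coding genes. Counted by gene, 13 of the 52 members held it (25%), against 20.5% of tested protein-coding genes. Of the 39 members called lower 9 held it, and of the other 13 members 4 did. It was held by 17.1% of the 2926 tested protein-coding genes called lower with a window. These are matches of letters, not measured binding.

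The 11 matches are printed to show the bases around the motif and its place, in order of log2 fold change from the largest fall to the rise of Pes1. Each line is on the gene's own strand with CACGTG in capitals and up to 12 bases on either side.
Tsr1: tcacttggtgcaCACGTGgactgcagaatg
Nop2: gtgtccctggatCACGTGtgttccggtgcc
Mybbp1a: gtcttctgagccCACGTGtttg
Grwd1: gggccggagtcgCACGTGtgaaaccgga
Ltv1: gccctgtggaccCACGTGtggagctgccgg
Utp20: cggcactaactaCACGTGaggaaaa
Utp18: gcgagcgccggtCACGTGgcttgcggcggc
Rrp7a: gtgcctgtgcacCACGTGtcctggaactgg
Wdr43: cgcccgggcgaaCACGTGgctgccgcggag
Utp4: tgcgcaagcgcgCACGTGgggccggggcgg
Pes1: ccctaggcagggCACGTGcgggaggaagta

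All coordinates are on GRCm38.p6. On the plus strand lie the printed sites of Tsr1 (chr11:74898092-74898121), Nop2 (chr6:125131811-125131840), Mybbp1a (chr11:72441355-72441376), Wdr43 (chr17:71616220-71616249), Utp4 (chr8:106893643-106893672) and Pes1 (chr11:3963965-3963994). On the minus strand lie those of Grwd1 (chr7:45830740-45830767), Ltv1 (chr10:13193092-13193121), Utp20 (chr10:88826765-88826789), Utp18 (chr11:93885769-93885798) and Rrp7a (chr15:83122992-83123021). Counting RefSeq's first transcribed base as 1, the motif begins at base 3 in Pes1, 16 in Utp4, 18 in Wdr43, 25 in Tsr1, 29 in Ltv1, 35 in Grwd1, 38 in Utp20 and 41 in Mybbp1a. In Nop2, Utp18 and Rrp7a it begins 60, 20 and 208 bases before the start. Members with the largest falls that have a window, Bysl, Rrp9, Ddx21, Heatr1 and Dkc1, had no CACGTG in it, which says only that these letters are not in that window. Nop2, the member with the largest fall whose match lies before the start, is shown with all 250 bases upstream of its start (chr6:125131633-125131882, plus strand).
Nop2: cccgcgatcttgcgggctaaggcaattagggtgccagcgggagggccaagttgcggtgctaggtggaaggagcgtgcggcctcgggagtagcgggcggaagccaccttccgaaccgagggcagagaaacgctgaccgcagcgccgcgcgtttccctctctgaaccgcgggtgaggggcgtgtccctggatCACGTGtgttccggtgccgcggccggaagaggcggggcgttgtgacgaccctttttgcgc

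A start region is shared by Noc4l and Ddx51, a helicase of the large subunit. Noc4l and Ddx51 run in opposite directions on chromosome 5 with starts at 110653417 and 110653451, 34 bases apart. Both fell, Noc4l 1.62-fold and Ddx51 1.43-fold.

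The label of the cells was checked against marker genes. Of 10 fibroblast markers 9 were at 1 FPKM or more, and Lum was at 0.0123 FPKM in normoxia and listed at 0 in hypoxia. The summed level of the 10 was 2312 FPKM in normoxia and 3663 in hypoxia, but they did not move together. Vim rose from 883 to 2249 FPKM and Fn1 from 448 to 649 FPKM, whereas Col3a1 fell from 328 to 182 FPKM, Col1a2 from 140.1 to 91.7, Dcn from 28.8 to 24.01, Pdgfrb from 10.9 to 6.58 and Thy1 from 8.65 to 5.72 FPKM. Col1a1 (463 and 451 FPKM) and Pdgfra (3.11 and 3.22 FPKM) were not called. Of 5 epithelial markers Krt18 was at 313 and 443 FPKM, Krt8 at 28.3 and 10.1, Epcam at 5.97 and 5.22 and Cdh1 at 5.93 and 3.76 FPKM, and Krt5 was listed at 0 in normoxia and at 0.00564 FPKM in hypoxia. The 4 endothelial markers summed to 0.220 FPKM in normoxia and 0.160 in hypoxia, and of 5 leukocyte markers Cd68 reached 1 FPKM (1.32 and 2.27 FPKM). The part of such differences in the changes of the 60 factors was not tested. In bulk RNA fewer cells of a kind and less RNA per cell cannot be told apart.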

How the data were processed

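Poly-A selected, stranded RNA libraries were made from 6 cultures, 3 per oxygen level, per the labels' protocols. The submitters' processing notes name Cuffdiff 2.2.1, Cufflinks, HISAT2 2.1.0 and StringTie 1.3.4d, and the build GRCm38. The sources used here do not say how libraries were scaled. The authors deposited 1 table with an FPKM per gene and group, a log2 fold change, a test score (not used) and a p-value with its q-value, per the file headers. With 1 value per group, the planned fits to single samples were replaced by the planned use of the deposited q, and no test between replicates was run. Nothing states how far the 3 cultures of a group were separate beyond the series design, which calls them biological replicates.

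The table's 53207 rows were reduced to 51482 measurements by counting rows that repeat 1 measurement once. Of these 14575 were tested. Log2 ratios computed from the FPKM columns differed from the deposited log2 values by at most 1.24e-05, and medians use these ratios without pseudocount. The smallest deposited p, 5e-05, gives a q of 0.000139, shared by 37 of the 60 members, so q does not rank these. Coordinates, exons and overlaps come from GENCODE M21 (GRCm38), and 59 of the 60 loci hold the annotated gene, with Wdr43 the exception, where the annotated gene starts before the locus. Copies were found with BLAST 2.17.0. Python 3.11.15 with pandas 2.3.3 was used, and the adjustment of p-values was tested on simulated data. Promoter windows are RefSeq's. Of 120 symbols on the lists of other assembly genes 108 had a row.

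The members, roles, lists and motifs were chosen with earlier results of these data known. Every member may be named. From the other lists up to 3 falls and 3 rises with the largest change were named, and genes named beyond that (Tbl3, Wdr3, Pwp2, Wdr36, Nol11, Snu13 and Abt1) were picked with their values in view. The alternatives tried were q below 0.01, a 2-fold minimum, filters of 1 and 5 FPKM, pseudocounts of 1 and 0.1, 2 rescalings, shared measurements and recomputed q-values. Leaving out overlapped or copied members, and all alternatives for the other lists, were added after seeing the data.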

Additional observations from a re-analysis of the deposited data

How the results depend on the processing

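Both rescalings changed the sign of no called member. Thresholds, filters, pseudocounts and recomputed q-values cannot change a sign, so they are no check of direction. Scaling by the median ratio (0.991) moved values little. With both groups scaled to the same FPKM sum, the 6 called rises kept their sign but shrank. Their log2 fold changes became 0.064 for Ddx10, 0.095 for Pes1, 0.11 for Ddx47, 0.14 for Rrp1b, 0.37 for Gnl3 and 0.42 for Npm1. With q below 0.01, 39 members fell and 4 rose. The 8 calls lost there were falls of Rrp7a, Utp14a, Ddx49, Gnl2, Ddx51 and Nop10 and rises of Gnl3 and Rrp1b. The share of all tested measurements called at q below 0.01 was not computed. The shares given at q below 0.05 do not apply to these counts. A 2-fold minimum left 24 falls (9 small-subunit, 8 large-subunit, 5 snoRNP and 2 multifunctional) and 0 rises. Among the other assembly genes it left 25 falls and 0 rises, and among all 14575 tested measurements 1438 falls and 1316 rises. By construction fewer members remained without overlapped or copied ones, 24 falls and 2 rises of 32, with a median of -0.95. The median log2 fold change of all members was -0.75 with a pseudocount of 1 and -0.70 at a mean of 5 FPKM or more. That filter took out only 1 member, Rrp12, and without Npm1 alone the median was -0.92. The median was -1.03 with both groups scaled to the same FPKM sum, which shifts every value by the same 0.22. With that scaling the medians were -0.88 for small-subunit, -0.83 for large-subunit, -1.37 for snoRNP and -1.13 for multifunctional members, and the uncalled values of Gnl3l and Rrp1 became -0.088 and -0.013. No member lies on a measurement shared with another gene name, so including shared measurements changed nothing. No paired analysis was possible because the table holds 1 combined value per group, and leaving out single replicates could not be run for the same reason. The depth is unknown, so no floor is given for low values such as Rrp12 in hypoxia.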

Other observations

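The deposited table carries Gene Ontology terms for its genes. Of the 60 members 56 have the term nucleolus and 34 the term rRNA processing. Among 88 other tested measurements with the term rRNA processing, 34 fell and 29 rose. Of these, 16 were ribosomal protein genes, of which 15 rose, 0 fell and 1 was not called (median log2 fold change 0.49), and the remaining 72 held 34 falls (47.2%) and 14 rises (median -0.29). Among 670 other measurements with the term nucleolus, 236 fell (35.2%) and 214 rose, with a median of -0.05, against 29.0% and 28.9% of all tested measurements. Of these 670, 24 were ribosomal protein genes, of which 23 rose and 0 fell, and the other 646 held 236 falls (36.5%) and 191 rises. Some measurements carry both terms and are counted under each. These groups were chosen after the data were seen and were not tested against each other.

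GENCODE places 21 small nucleolar RNA genes within 7 of the 60 members, 5 in Nop56, 4 in Nop58, 3 each in Ncl, Gnl3 and Wdr43, 2 in Tsr1 and 1 in Dkc1. Of these hosts 6 fell and Gnl3 rose. Poly-A selection captures mature snoRNAs poorly, so the values are those of the host mRNAs.

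The 24 members that fell at least 2-fold had a median normoxia level of 20.2 FPKM and a median mRNA length of 2878.5 bases, and the 21 that fell less had 35.6 FPKM and 2714 bases. Across the 60 members Spearman's rho with the log2 fold change was -0.16 for mRNA length, -0.14 for the number of exons and -0.24 for the GC content of the mRNA. Across tested protein-coding genes with a single name these were 0.06, 0.10 and -0.06. The points share 2 group values, and genes are not independent replicates.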
